A study of Mus musculus with 15 samples.

Results

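The whole blood of 5 mice that had received αCTLA-4 followed by an early neck dissection (ND) was compared with that of 5 untreated mice, across every gene in the deposited count files. These 10 libraries, chosen by their treatment and surgery labels, are 10 of the 15 libraries of the series, and the other 5 come from mice given αCTLA-4 and a late ND. All mice were C57BL/6, female and 4 to 6 weeks old at transplantation by the study's methods, and the protocol given for every sample describes 4MOSC1 cells, a carcinogen-induced mouse oral squamous carcinoma line, placed in the tongue and grown for 10 days. The early ND mice had 2 antibody doses and then, on day 6 after tumor transplantation and 1 day after the last dose, surgical removal of the cervical lymph nodes that drain the tongue. The untreated mice are labelled with neither drug nor surgery, and a tumor-free state is not stated for them in the labels or the methods. The groups therefore differ in the antibody and in the operation at once, and the effects of the antibody and of the operation cannot be told apart. Blood was taken by cheek bleed, on day 10 by one description in the study and after the delayed operation of day 11 by another, so the sampling day is uncertain. Blood was collected per animal and each library is labelled as a replicate of its own, taken here as 1 mouse, so the errors and p-values below measure the spread between mice.

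CTLA-4 is an inhibitory receptor of T cells that binds Cd80 and Cd86 on antigen-presenting cells, and antibodies that block it, a class of immune checkpoint inhibitor (ICI), release T cell priming. Much of that priming takes place in the lymph nodes draining a tumor, from which activated T cells enter the blood. Whole blood RNA is a mixture. Reticulocytes carry hemoglobin mRNA, platelets carry megakaryocyte transcripts, and neutrophils, monocytes, B cells, T cells and NK cells each add their own genes. In such bulk RNA, fewer cells of a type and less RNA per cell cannot be told apart.

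No gene differed between early ND and untreated blood past an adjusted p of 0.05. Of 55416 genes in the files, 12151 had enough counts for testing, and the smallest adjusted p was 0.938 by the quasi-likelihood test of edgeR with Benjamini-Hochberg adjustment. That is 0 genes higher and 0 genes lower, or 0% of the genes tested in each direction. DESeq2 and limma also called 0 genes in each direction. At an unadjusted p under 0.05, 256 genes (2.11%) were higher and 283 (2.33%) lower, 539 or 4.44% in all. The log2 fold change was above 0 for 6027 genes (49.6%) and below 0 for 6124 (50.4%). All 5 early ND mice lay above all 5 untreated mice for 41 genes (0.337%) and below them for 27 (0.222%).

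The precision of this comparison set what could be seen. The median standard error of a log2 fold change was 0.20 and the median half-width of its 95% interval was 0.44. For 10069 genes (82.9%) the whole interval lay between −1 and 1, so a doubling or a halving was outside it. This share was 54.0% among the 2578 genes with a mean below 30 counts, and 93.9% among the 3355 genes with a mean of 100 to 300 counts. A log2 fold change beyond 1 in either direction was estimated for 94 genes. The biological coefficient of variation was 0.257, and the median SD of log2 CPM (counts per 1000000 counts of library size) was 0.30 within each group.

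The libraries of the groups overlapped in depth and makeup. Gene counts per library averaged 6514363 ± 620873 in the early ND group and 7196865 ± 2040141 in the untreated group (SD, n = 5 each). The difference in depth, −682502, became 217306 without untreated mouse 2. Hemoglobin genes took 48.5% ± 10.4 of the gene counts after early ND, with a range of 38.3% to 64.1%, and 48.4% ± 12.7 in untreated blood, with a range of 31.6% to 61.7%. The difference of 0.167 percentage points had p = 0.976 in a two-sided exact permutation test. Leaving out single mice moved it from −4.03 without untreated mouse 2 to 3.51 without untreated mouse 3. Over 7 such measures, the lowest exact permutation p was 0.365, for the mitochondrial share at 2.98% ± 1.25 after early ND and 2.27% ± 1.01 in untreated blood, and the smallest p that 5 against 5 mice can give is 0.00794. The share of counts on Rn18s-rs5, an 18S ribosomal RNA sequence, ran from 3.45% to 4.74% after early ND and from 0.0766% to 10.6% in untreated blood, where untreated mouse 2 was lowest.

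Principal components of the 500 most variable genes did not separate the groups. The first component held 56.8% of the variance, with mean scores of −3.56 ± 13.6 for early ND and 3.56 ± 17.0 for untreated mice (SD, n = 5 each), and its exact permutation p was 0.500. The second held 19.1% of the variance, and its exact permutation p was 0.675. Both had an adjusted exact permutation p of 0.675. Untreated mouse 5, with a score of 32.1, and early ND mouse 3, with 18.8, stood at one end of the first component. Its leading genes at that end included Scd3, Elovl3, Elovl5 and Cidea, lipid genes of skin glands, whereas the other end was led by red cell genes such as Epb42. Median distances between mice, over the variance-stabilized counts of all 12151 genes tested, were 47.3 within early ND, 49.3 within untreated and 47.5 between the groups.

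**Figure D1:**
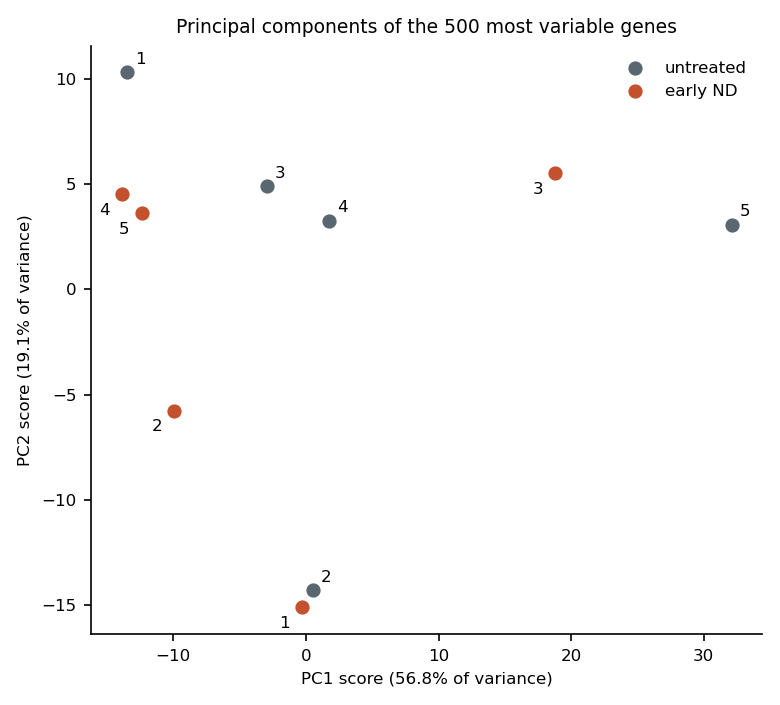
Each point is 1 mouse, numbered by its replicate, at its PC1 score (x axis, 56.8% of variance) and PC2 score (y axis, 19.1% of variance) from variance-stabilized counts of the 500 most variable genes. Untreated and early ND mice are interspersed, and untreated mouse 5 and early ND mouse 3 lie apart on the right.

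Genes were next read in 28 lists of cell type markers and pathways, holding 559 symbols. In none of the 28 lists did a member pass the adjusted threshold, and the median log2 fold change over all genes tested was −0.00, so list medians below are read beside a value of 0. The lists share some genes, and they were not tested as sets.

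The neutrophil list had the median farthest from 0 of the 28 lists. Neutrophils are short-lived phagocytes released from marrow, and their transcripts include the calcium-binding alarmins S100a8 and S100a9, granule enzymes and receptors for bacterial peptides. All 21 members of the list were tested, all 21 had a log2 fold change below 0 (50.4% of all genes did), and the median was −0.91. Of these, 12 had an unadjusted p under 0.05, against 2.33% of all genes in that direction, and the remaining 9 did not. The list score, the mean log2 CPM of its members, was 5.79 ± 0.70 for early ND and 6.66 ± 0.69 for untreated mice (SD, n = 5 each). The groups overlapped, because untreated mouse 3 had a score of 5.51 and early ND mouse 3 a score of 6.68. The other early ND mice were between 5.09 and 6.33, and the other untreated mice between 6.65 and 7.30.

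Ly6g, a surface protein of mouse neutrophils (chromosome 15, 75027089 to 75030982, GRCm39, plus strand), was measured at 27.8, 38.4, 6.84, 63.4 and 15.2 CPM in untreated mice 1 to 5. In early ND mice 1 to 5 it was at 6.76, 3.45, 22, 4.52 and 13.6 CPM. CPM here use the library size after edgeR's trimmed mean of M values (TMM) scaling. Untreated mice 1, 2 and 4 were above every early ND mouse, and early ND mice 1, 2 and 4 were below every untreated mouse, whereas untreated mouse 3 and early ND mouse 3 crossed over. The log2 fold change was −1.57 (95% interval −2.81 to −0.34), with an unadjusted p of 0.0166 and an edgeR adjusted p of 0.938. It ranged from −2.30 to −1.12 over the alternative settings. The unadjusted edgeR p of Ly6g ran from 0.000188 with library totals in place of TMM to 0.0802 with replicate numbers as blocks.

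S100a8 (chromosome 3, 90567118 to 90578128, GRCm39, plus strand) followed the same mice. Untreated mice 1 to 5 had 1663, 2351, 833, 2517 and 1885 CPM, and early ND mice 1 to 5 had 661, 372, 1295, 536 and 1246 CPM. Only untreated mouse 3 fell within the early ND range. The means were 822 ± 422 for early ND and 1850 ± 664 for untreated mice (SD, n = 5 each). Its log2 fold change was −1.17 (95% interval −2.01 to −0.33), with an unadjusted p of 0.0100 and an edgeR adjusted p of 0.938. Its partner S100a9 had a log2 fold change of −1.08 (95% interval −1.94 to −0.23).

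Other neutrophil products were high and low in the same mice. Retnlg, a resistin-like secreted protein of neutrophils, was at 577, 780, 222, 906 and 469 CPM in untreated mice and at 213, 121, 536, 182 and 382 CPM in early ND mice, a log2 fold change of −1.04 (95% interval −1.96 to −0.12). Mmp8, the neutrophil collagenase, had a log2 fold change of −1.21 (−2.23 to −0.19), and Mmp9, a gelatinase of the tertiary granules, one of −0.63 (−1.25 to −0.01). Il1r2, the decoy receptor for interleukin-1, had −1.21 (−2.22 to −0.20). Mcemp1, a membrane protein of myeloid cells, had the smallest unadjusted p of the list, 0.00885, with a log2 fold change of −0.89 (−1.51 to −0.27). The others past the unadjusted threshold were Cd177, Padi4, Fpr1 and Fpr2. Genes made at earlier stages in the marrow were also below 0 but with wider intervals, as for Camp at −0.45 (−1.48 to 0.58), Ltf at −0.41 (−1.59 to 0.77) and Ngp at −1.0 (−2.21 to 0.20). Csf3r, the receptor for granulocyte colony-stimulating factor, had the smallest difference, with −0.33 (−0.96 to 0.30).

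The count of 12 neutrophil members depended on single mice. It was 6 without untreated mouse 4, 6 without early ND mouse 1 and 6 without early ND mouse 4, and it was 18 without early ND mouse 3. It was 18 also without both untreated mouse 5 and early ND mouse 3, the mice with the most skin gland lipid RNA. The count over all genes moved as well. There, 283 genes were lower at that p in the main fit, 179 without early ND mouse 1 and 815 without early ND mouse 3. Without both untreated mouse 5 and early ND mouse 3 it was 550. The list median stayed between −1.17 and −0.75 when each mouse was left out. In late ND blood, compared with the same 5 untreated mice, the list median was 0.29, S100a8 had a log2 fold change of 0.02 and Ly6g one of −0.34. Early and late ND share those untreated mice, and the difference between early and late ND was not tested here.

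**Figure D2:**
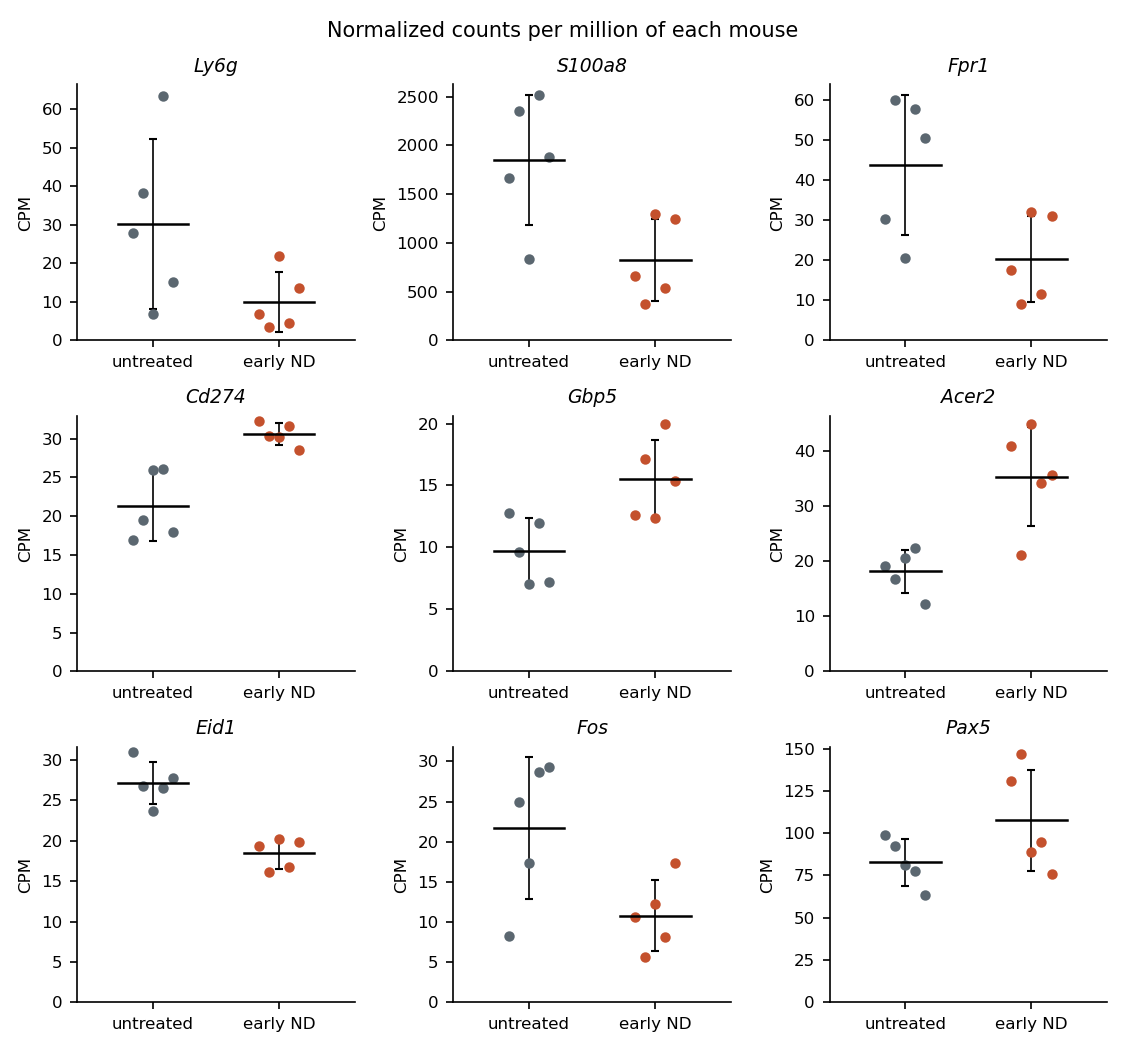
CPM (y axis, starting at 0) of 9 genes in each untreated and each early ND mouse, with 1 point per mouse, a line at the mean and a bar of 1 SD. The neutrophil genes Ly6g, S100a8 and Fpr1 and the early response gene Fos have lower means after early ND with overlapping groups, whereas Cd274 and Eid1 do not overlap between the groups. Over all genes, 0.337% were higher and 0.222% lower without overlap.

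The upstream sequences of 2 neutrophil genes are shown because members of this list were high and low in the same mice. They are the 250 bases before the annotated start of each gene, from RefSeq, GRCm38.p6, and capitals mark matches on either strand to GAGGAA, the core of sites for the myeloid factor PU.1, or to TTGCNNAA, a site form of C/EBP factors. S100a8 is at chr3:90668821-90669070, plus strand, and Retnlg at chr16:48872358-48872607, plus strand.
S100a8: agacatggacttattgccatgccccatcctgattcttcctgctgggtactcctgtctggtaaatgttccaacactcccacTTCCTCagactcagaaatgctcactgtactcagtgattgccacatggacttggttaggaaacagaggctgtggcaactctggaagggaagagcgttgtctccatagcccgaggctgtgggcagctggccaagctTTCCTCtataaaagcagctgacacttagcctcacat
Retnlg: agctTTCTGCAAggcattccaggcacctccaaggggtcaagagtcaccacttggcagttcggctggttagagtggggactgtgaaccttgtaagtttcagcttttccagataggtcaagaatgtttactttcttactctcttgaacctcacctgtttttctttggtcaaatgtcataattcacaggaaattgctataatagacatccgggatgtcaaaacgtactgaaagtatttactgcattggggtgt
The S100a8 stretch held 2 matches to GAGGAA, and the Retnlg stretch held 1 match to TTGCNNAA. GAGGAA was present in 57.1% of the 21 promoters of 20 neutrophil list genes found in the table, in 46.7% of the 15 promoters of the type I interferon-stimulated list described below, and in 23.3% of all 32851 promoters of the same length. TTGCNNAA was present in 33.3%, 0% and 9.56% of these. These are descriptions of letters in a window, and no binding was measured.

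Genes of inflammatory signaling lay on the same side as the neutrophil genes. Of 11 tested members of the inflammatory cytokine and sensor list, 9 were below 0 (50.4% of all genes were), 3 of these had an unadjusted p under 0.05 (2.33% of all genes), and the median was −0.52. The 3 were Tlr2, a receptor for bacterial lipoproteins, at −1.0 (95% interval −1.75 to −0.25), Osm, the cytokine oncostatin M, at −0.85 (−1.55 to −0.16), and Socs3, a feedback inhibitor of cytokine receptors, at −0.77 (−1.43 to −0.10). Osm was at 8.93, 13.3, 7.75, 13 and 11.9 CPM in untreated mice and at 4.40, 5.04, 10.5, 1.98 and 8.05 CPM in early ND mice, with untreated mouse 3 and early ND mouse 3 again crossing over. Il1b, interleukin-1 beta, had −0.52 (−1.21 to 0.16), and Saa3, an acute-phase serum amyloid A, had −0.82 (−2.77 to 1.12). Nfkbia, the inhibitor of NF-kB, was above 0 at 0.24 (−0.13 to 0.61). The neutrophil list score moved with this list in the same mice, and its part in these values was not tested.

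The chemokine and chemoattractant receptor list, which holds chemokine ligands as well as receptors, had 25 tested members. Of these 16 were below 0, with a median of −0.11, or −0.01 without early ND mouse 3. Past the unadjusted threshold 5 members were lower and 0 higher, against 2.33% and 2.11% of all genes. Fpr1 and Fpr2, formyl peptide receptors of neutrophils and monocytes, had −1.11 (95% interval −1.91 to −0.31) and −0.91 (−1.59 to −0.24), and Ccr1, a receptor of myeloid cells, had −0.71 (−1.38 to −0.03). Ccr4 and Cxcr6, receptors of helper and tissue-homing T cells, had −0.72 (−1.39 to −0.05) and −0.73 (−1.38 to −0.08). Cxcr4, the receptor for Cxcl12, had the smallest p among those above 0, with 0.22 (−0.07 to 0.52).

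Immediate early genes encode short-lived transcription factors and regulators that respond within minutes to a stimulus. Of 9 tested members 6 were below 0, with a median of −0.25 (−0.16 without untreated mouse 1), and 4 were lower and 1 higher at an unadjusted p under 0.05, against 2.33% and 2.11% of all genes. Fos was at 8.29, 25.0, 17.3, 28.7 and 29.3 CPM in untreated mice and at 10.6, 5.71, 12.3, 8.19 and 17.3 CPM in early ND mice, a log2 fold change of −1.03 (95% interval −1.74 to −0.32) with an unadjusted p of 0.00782. Untreated mouse 1 had less Fos than 3 of the early ND mice, and the other untreated mice were at or above the early ND maximum. Junb, Ier2 and Ier3 had −0.56, −0.34 and −0.83. Atf3, a stress-induced repressor, was on the other side with 0.72 (0.15 to 1.28) and an unadjusted p of 0.0169, from a mean of 2.54 CPM in untreated blood to 4.05 CPM after early ND.

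**Figure D3:**
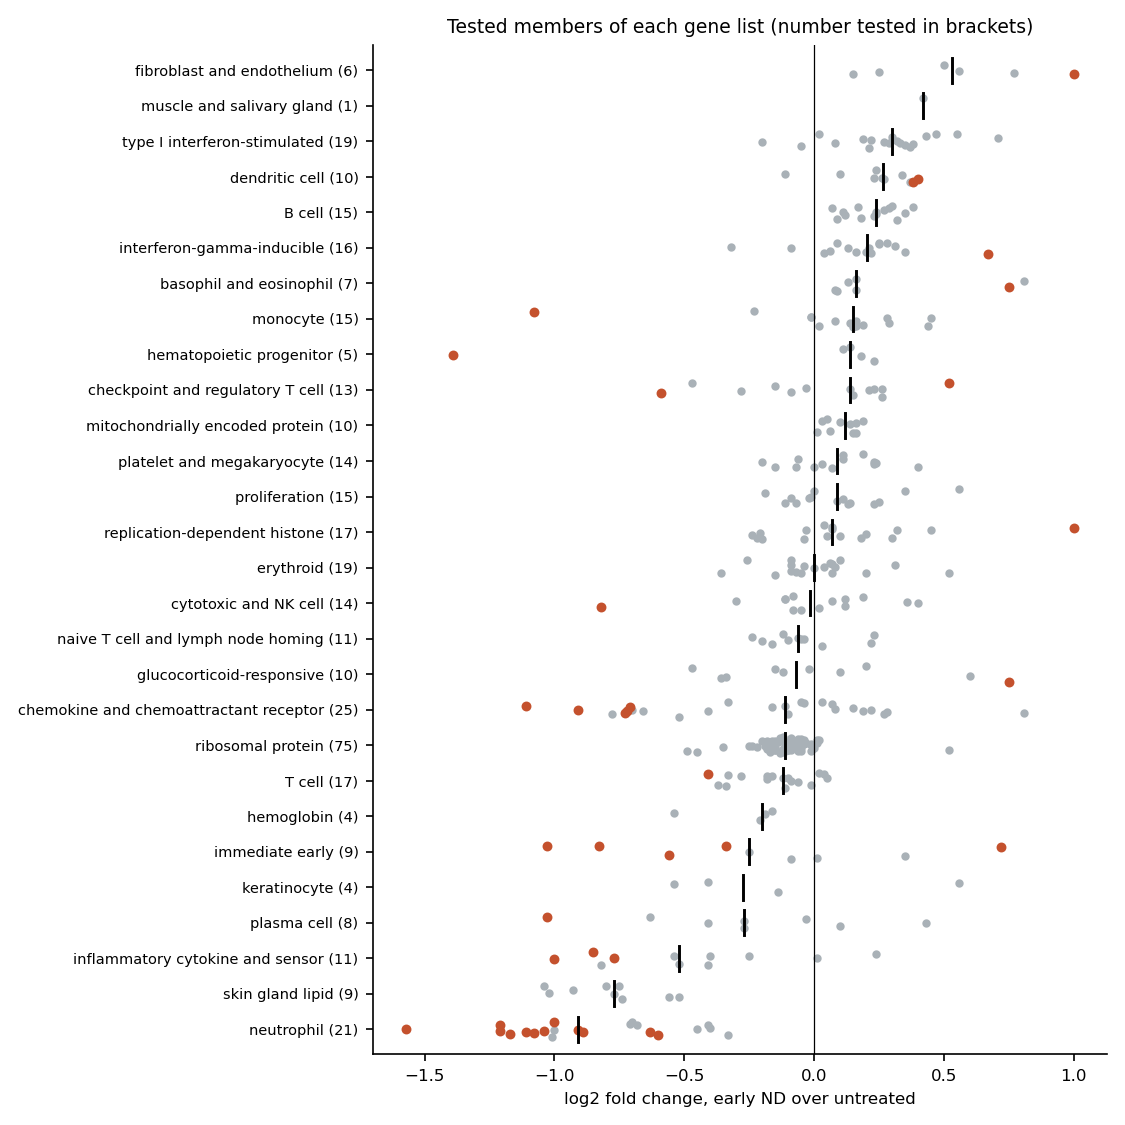
Log2 fold change of early ND over untreated (x axis) for each tested member of the 28 lists (y axis, number tested in brackets), with a black bar at the list median and red points for members with an unadjusted p under 0.05. All 21 neutrophil members lie left of 0, with a median of −0.91, and no member of any list passed the adjusted threshold.

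Interferon-stimulated genes mostly lay above 0 but varied widely within each group. Type I interferons induce antiviral effectors in most cell types. Of 19 tested members 17 were above 0 (49.6% of all genes were), the median was 0.30, and 0 had an unadjusted p under 0.05 in either direction. Ifit2, an antiviral tetratricopeptide repeat protein, came nearest with a log2 fold change of 0.47 (95% interval −0.02 to 0.96). Isg15, a ubiquitin-like modifier, ran from 67.0 to 280 CPM in untreated mice, with a median of 215, and from 60.7 to 513 CPM in early ND mice, with a median of 155. Its log2 fold change was 0.38 (−0.78 to 1.54), so neither direction was resolved. Rsad2, the antiviral enzyme viperin, had 0.22 (−0.92 to 1.36). The list score was highest in early ND mouse 4, at 5.98, and in untreated mouse 4, at 5.91. Without untreated mouse 4 the list median was 0.49 and 8 members were higher at an unadjusted p under 0.05. Over all genes, 256 were higher at that p in the main fit and at most 367 when any single mouse was left out. Without early ND mouse 4 the list median was 0.08.

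Genes induced by interferon-gamma, the main cytokine of activated T cells and NK cells, gave a similar account. Of 16 tested members 14 were above 0, with a median of 0.21 (0.10 without untreated mouse 5 and 0.36 without untreated mouse 4), and 1 was higher at an unadjusted p under 0.05 against 2.11% of all genes. This was Gbp5, a guanylate-binding GTPase of inflammasome and cell-autonomous defense (chromosome 3, 142199739 to 142228105, GRCm39, plus strand). It was at 12.8, 9.61, 7.06, 12 and 7.25 CPM in untreated mice and at 12.6, 17.1, 12.4, 20.0 and 15.4 CPM in early ND mice. Only untreated mouse 1 reached into the early ND range. The log2 fold change was 0.67 (95% interval 0.24 to 1.10), with an unadjusted p of 0.00533 and an edgeR adjusted p of 0.938. Its relatives Gbp2, Gbp3, Gbp4, Gbp6 and Gbp7 had values of 0.06, 0.25, 0.25, 0.28 and 0.09. Irf1, the transcription factor that drives many of them, had 0.04 (−0.28 to 0.36), and 0.460 of its exon bases are also covered by a gene on the opposite strand. Socs1, a feedback inhibitor, had the lowest value, −0.32 (−0.87 to 0.23).

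The Gbp5 upstream stretch is shown because Gbp5 led this list. It is at chr3:142496684-142496933, plus strand, RefSeq, GRCm38.p6, and capitals mark matches on either strand to TTCNNNGAA, a form of the interferon-gamma activated site, or to the interferon-stimulated response element, read as GAAA, 2 free bases and GAAA.
Gbp5: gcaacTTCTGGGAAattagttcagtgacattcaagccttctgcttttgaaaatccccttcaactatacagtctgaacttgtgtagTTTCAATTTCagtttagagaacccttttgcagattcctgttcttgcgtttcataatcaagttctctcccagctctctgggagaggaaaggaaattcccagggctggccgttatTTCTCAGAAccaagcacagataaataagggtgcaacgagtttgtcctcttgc
It held 2 matches to TTCNNNGAA and 1 to the response element. Of 16 promoters of 14 genes of the interferon-gamma list, 37.5% held TTCNNNGAA and 56.2% held the response element, against 7.02% and 2.98% of all promoters. The same stretch of Cd274, described next, held 0 matches to either.

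Checkpoint and regulatory T cell genes include the target of the antibody. Ctla4 itself was at 3.19, 5.26, 4.33, 2.72 and 2.85 CPM in untreated mice and at 4.81, 4.91, 1.99, 2.54 and 2.27 CPM in early ND mice. The groups overlapped, and the log2 fold change was −0.15 (95% interval −0.83 to 0.54). Its ligands Cd80 and Cd86 had −0.47 (−1.17 to 0.24) and −0.09 (−0.47 to 0.29). Foxp3, the lineage factor of regulatory T cells, had 0.26 (−0.31 to 0.83). Pdcd1, which encodes PD-1, was too low for testing, with 0.679 to 1.98 CPM in untreated mice and 0.111 to 1.23 CPM in early ND mice. Of the 13 members tested, 7 were above and 6 below 0, with a median of 0.14. Leaving out any single mouse lowered it, to between −0.10 (without untreated mouse 1) and 0.09 (without untreated mouse 3).

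Cd274, which encodes PD-L1, the ligand of PD-1, was the only higher member of this list with an unadjusted p under 0.05, against 2.11% of all genes (chromosome 19, 29344529 to 29365495, GRCm39, plus strand). It was at 16.9, 19.5, 26.0, 26.1 and 17.9 CPM in untreated mice and at 32.2, 30.3, 30.2, 31.6 and 28.5 CPM in early ND mice. Every early ND mouse lay above every untreated mouse, as for 0.337% of all genes. The early ND values were close together, at 30.6 ± 1.42 (SD, n = 5) against 21.3 ± 4.45 (SD, n = 5). The log2 fold change was 0.52 (95% interval 0.23 to 0.82), with an unadjusted p of 0.00222 and an edgeR adjusted p of 0.938. It ranged from 0.39 to 0.61 over the alternative settings, and its unadjusted edgeR p reached 0.158 with library totals in place of TMM. In late ND blood against the same untreated mice, Cd274 had −0.17. The share of its exon bases that a gene on the opposite strand also covers is 0.196. Icos, a costimulatory receptor of activated and regulatory T cells, lay on the lower side with 7.17, 9.29, 7.97, 13.8 and 5.95 CPM in early ND mice and 11.2, 14.7, 13.7, 14.3 and 11.1 CPM in untreated mice. Early ND mouse 4 was the only one within the untreated range, and the log2 fold change was −0.59 (−1.03 to −0.15) with an unadjusted p of 0.0125. Icos was the 1 member lower at an unadjusted p under 0.05, against 2.33% of all genes.

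B cell genes had small values of one sign. All 15 members were above 0, from 0.07 to 0.38, the median was 0.24, and 0 had an unadjusted p under 0.05. Pax5, the B lineage factor, had the smallest p. It was at 99.2, 92.4, 81.1, 77.7 and 63.2 CPM in untreated mice and at 131, 147, 88.8, 94.6 and 76.1 CPM in early ND mice, a log2 fold change of 0.38 (95% interval −0.04 to 0.80). Early ND mice 1 and 2 were above all untreated mice and the other 3 were not. Without early ND mouse 2 the list median was 0.05. Among plasma cell genes, Jchain, which joins IgM and IgA, had −1.03 (−2.02 to −0.04). Jchain was the 1 member lower at an unadjusted p under 0.05, against 2.33% of all genes. Of 8 tested members 6 were below 0, with a median of −0.27 that was −0.11 without untreated mouse 5 and −0.41 without untreated mouse 3.

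T cell genes lay slightly below 0. Of 17 members 14 were below 0, with a median of −0.12 and a range of −0.41 to 0.05. That median was −0.02 without early ND mouse 3 and −0.23 without untreated mouse 5. Cd3e, a chain of the T cell receptor complex, had a log2 fold change of 0.02 (95% interval −0.31 to 0.34), Cd4 had −0.09 (−0.62 to 0.45) and Cd8a had −0.18 (−0.59 to 0.22), so a doubling of any of them was outside its interval. Lat, the adaptor that links the receptor to downstream signaling, was at 55.2, 74.4, 49.2, 48.1 and 62.6 CPM in untreated mice and at 44.8, 47.4, 39.5, 46.0 and 40.8 CPM in early ND mice. The groups did not overlap, and the log2 fold change was −0.41 (−0.70 to −0.12) with an unadjusted p of 0.00994. Lat was the 1 member lower without overlap (0.222% of all genes) and the 1 lower at an unadjusted p under 0.05 (2.33% of all genes). Naive T cell and lymph node homing genes, 11 in number, had a median of −0.06, or 0.01 without early ND mouse 3 and −0.18 without untreated mouse 5. Ccr7, which guides lymphocytes into lymph nodes, had 0.03 (−0.31 to 0.37). Tcf7 and Lef1, factors of naive and memory T cells, had −0.24 (−0.67 to 0.18) and 0.22 (−0.14 to 0.58).

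Cytotoxic and NK cell genes were split evenly, with 7 of 14 above 0 and a median of −0.01, or 0.15 without untreated mouse 3 and −0.13 without untreated mouse 5. Gzma and Prf1, a granzyme and the pore-forming protein of cytotoxic granules, had 0.07 (95% interval −0.42 to 0.57) and −0.05 (−0.54 to 0.45). Ncr1, an activating NK receptor, had 0.40 (−0.17 to 0.96), and Nkg7 had −0.30 (−0.61 to 0.02). Klrc1, which encodes the NKG2A inhibitory receptor, was at 4.47, 7.97, 8.89, 6.93 and 8.81 CPM in untreated mice and at 5.94, 4.65, 2.99, 3.39 and 4.02 CPM in early ND mice. Untreated mouse 1 was the only one within the early ND range, and the log2 fold change was −0.82 (−1.33 to −0.31) with an unadjusted p of 0.00421. Klrc1 was the 1 member lower at an unadjusted p under 0.05, against 2.33% of all genes. Proliferation genes gave a median of 0.09 over 15 members, or −0.05 without untreated mouse 5, with Mki67 at 0.35 (−0.22 to 0.92) and Top2a at 0.56 (−0.13 to 1.26).

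Of 15 monocyte genes 11 were above 0, with a median of 0.15, which was −0.04 without early ND mouse 5 and 0.28 without untreated mouse 4. Csf1r, the receptor for macrophage colony-stimulating factor, had −0.01 (95% interval −0.35 to 0.33), Ccr2, which brings monocytes out of the marrow, had 0.08 (−0.53 to 0.70), and Ly6c2, a marker of classical monocytes, had 0.19 (−0.54 to 0.91). Cd14, the coreceptor for endotoxin, was the only member past the unadjusted threshold, against 2.33% of all genes in that direction. It had −1.08 (−1.99 to −0.17), and its values were high and low in the same mice as the neutrophil genes, at 6.38 CPM in untreated mouse 3 and 17.4 CPM in early ND mouse 3. Dendritic cell genes had 9 of 10 members above 0 and a median of 0.26, or 0.13 without early ND mouse 1. Irf8, the factor of monocyte and dendritic lineages, was at 50.7, 44.7, 55.6, 53.8 and 46.0 CPM in untreated mice and at 78.1, 72.8, 43.5, 66.3 and 69.8 CPM in early ND mice, and 4 of the 5 early ND mice lay above all untreated mice while early ND mouse 3 lay below them. Its log2 fold change was 0.40 (0.07 to 0.73), and Tcf4, the factor of plasmacytoid cells, had 0.38 (0.06 to 0.70). These 2 of the 10 members were higher at an unadjusted p under 0.05, against 2.11% of all genes. Basophil and eosinophil genes had all 7 tested members above 0 with a median of 0.16, which was −0.01 without early ND mouse 5 and 0.38 without untreated mouse 4. Il5ra, the interleukin-5 receptor, had 0.75 (0.08 to 1.43) and was the 1 member higher at an unadjusted p under 0.05, against 2.11% of all genes.

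**Figure D4:**
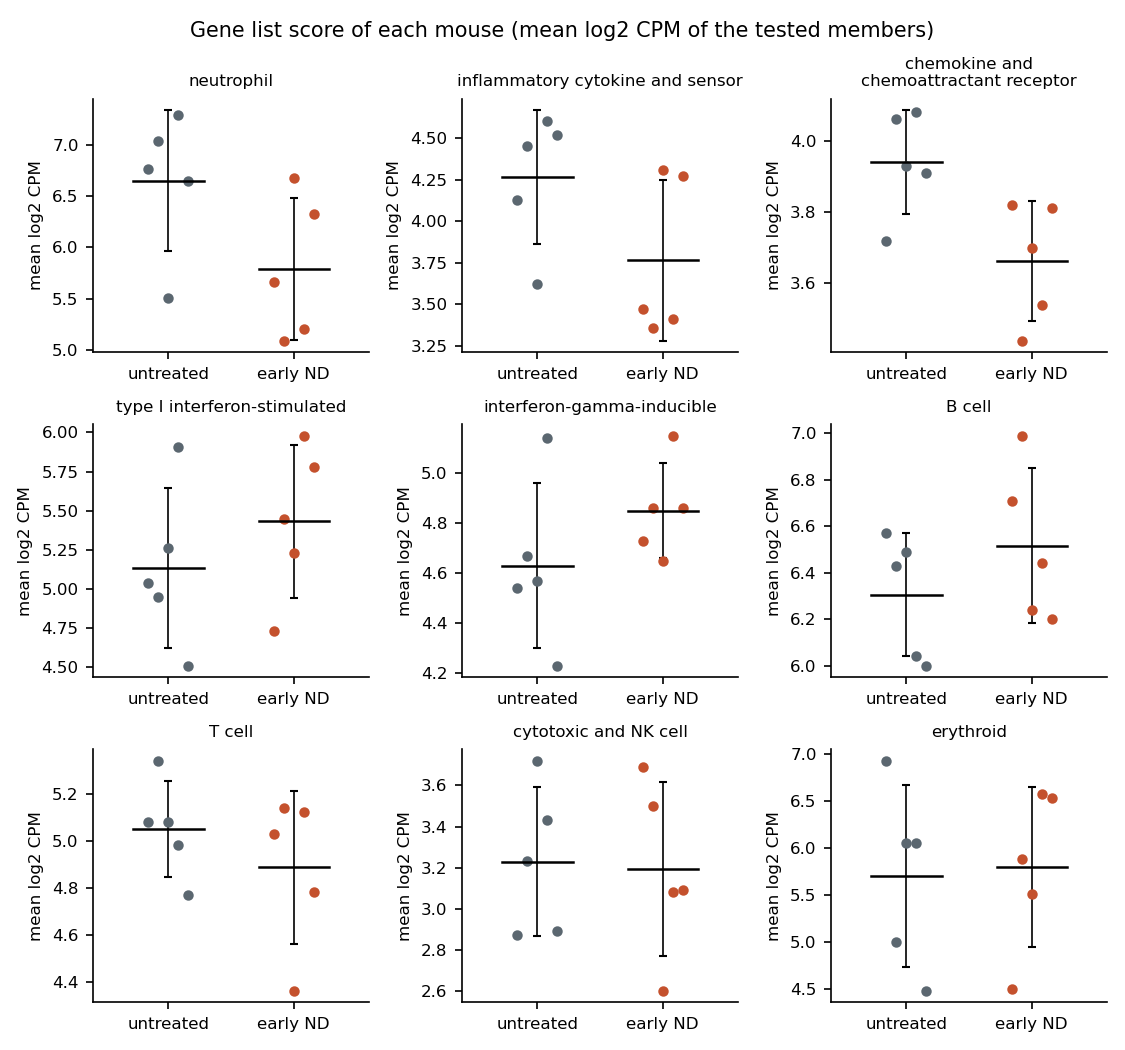
Score of 9 gene lists (y axis, mean log2 CPM of the tested members) in each untreated and each early ND mouse, with 1 point per mouse, a line at the mean and a bar of 1 SD. The groups overlap in each of the 9 lists, with neutrophil means of 5.79 after early ND and 6.66 in untreated blood.

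Red cell transcripts made up much of the counted RNA. The 19 erythroid genes had a median of −0.00, with 9 above and 10 below 0, and of 0.43 without untreated mouse 1 and −0.26 without early ND mouse 4. Alas2, the first enzyme of heme synthesis in red cells, ran from 5256 to 28366 CPM in untreated mice and from 5410 to 24450 CPM in early ND mice, a log2 fold change of −0.04 (95% interval −1.25 to 1.17). Within each group the highest mouse had over 4 times the value of the lowest. Slc4a1, the red cell anion exchanger, had −0.07 (−1.33 to 1.19). The 4 hemoglobin genes, whose near-identical copies may divide reads between them, had values from −0.54 to −0.16, with a median of −0.20 that was 0.14 without untreated mouse 1. In late ND blood against the same untreated mice the erythroid median was −2.36 and the hemoglobin median was −2.40. That comparison called 134 genes higher (0.989%) and 272 lower (2.01%) of 13547 tested by the same edgeR test. Of 5 tested hematopoietic progenitor genes 4 were above 0, with a median of 0.14 (0.03 without untreated mouse 5). Kit, the stem cell factor receptor, had −1.39 and was the 1 member lower at an unadjusted p under 0.05, against 2.33% of all genes. Platelet genes had a median of 0.09 over 14 members, or −0.05 without untreated mouse 5, with Pf4 at −0.06 (−0.49 to 0.38).

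Apart from the lists, the genes with the smallest p were led on the higher side by Acer2, an alkaline ceramidase that turns ceramide into sphingosine (chromosome 4, 86792537 to 86853061, GRCm39, plus strand). It was at 19.1, 16.7, 20.5, 22.4 and 12.2 CPM in untreated mice and at 40.9, 21.2, 44.8, 34.2 and 35.7 CPM in early ND mice. Early ND mouse 2 was the only one within the untreated range. Its log2 fold change was 0.97 (95% interval 0.52 to 1.42), with an unadjusted p of 0.000457 and an edgeR adjusted p of 0.938, and over the alternative settings it ran from 0.66 to 1.10. Ddit4, a stress- and glucocorticoid-induced inhibitor of mTORC1, was at 26.2, 18.9, 13.9, 17.8 and 17.0 CPM in untreated mice and at 22.9, 28.4, 34.9, 43.5 and 27.8 CPM in early ND mice, a log2 fold change of 0.75 (0.34 to 1.17). Early ND mouse 1 was the only one below the highest untreated value. Ddit4 was the 1 member of the glucocorticoid-responsive list higher at an unadjusted p under 0.05, against 2.11% of all genes. That list had 4 of 10 members above 0 and a median of −0.07, or −0.33 without early ND mouse 3 and 0.05 without untreated mouse 1. Of its other genes, Tsc22d3 had 0.10 (−0.25 to 0.46) and Fkbp5 had −0.36 (−1.20 to 0.48).

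Besides Cd274 and Gbp5, the remaining genes of the 10 with the smallest p on the higher side had log2 fold changes of 0.44 to 0.63. Rev1, a translesion DNA polymerase, was at 6.84 to 7.74 CPM in untreated mice and at 9.12 to 11.6 CPM in early ND mice. The groups did not overlap, against 0.337% of all genes higher without overlap, and the value of Rev1 was 0.45 (95% interval 0.17 to 0.74). Shprh, a ubiquitin ligase of DNA damage tolerance, had 0.44 (0.16 to 0.72), Phlpp2, a phosphatase that acts on AKT, had 0.63 (0.23 to 1.03), and Vasn, a protein that binds TGF-beta, had 0.48 (0.17 to 0.79). 1110002L01Rik, also without overlap, had 0.54 and Rbm3os had 0.62. Shares of 0.424 and 0.431 of their exon bases lie opposite another gene, and reads of such partners cannot be told apart without a stated strand setting.

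On the lower side the smallest p belonged to Eid1, an inhibitor of the acetyltransferase p300 (chromosome 2, 125515015 to 125516705, GRCm39, plus strand). It was at 30.9, 26.8, 23.7, 26.5 and 27.7 CPM in untreated mice and at 19.3, 16.1, 20.2, 16.7 and 19.8 CPM in early ND mice. All early ND mice were below all untreated mice, as for 0.222% of all genes, at 18.4 ± 1.88 (SD, n = 5) against 27.1 ± 2.61 (SD, n = 5). Its log2 fold change was −0.55 (95% interval −0.80 to −0.31), with an unadjusted p of 0.000282 and an edgeR adjusted p of 0.938, and 0.357 of its exon bases lie opposite another gene. Ggt1, a gamma-glutamyltransferase of glutathione breakdown, had the largest estimated difference of these 10 genes. It was at 24.2, 16.9, 5.70, 16.6 and 13.7 CPM in untreated mice and at 3.48, 3.98, 9.85, 4.80 and 4.72 CPM in early ND mice, a log2 fold change of −1.50 (−2.27 to −0.73). Untreated mouse 3 and early ND mouse 3 crossed over here too.

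The other genes on the lower side had smaller values. Hpcal1, a neuronal calcium sensor family protein, was at 28.0 to 37.0 CPM in untreated mice and at 19.8 to 26.0 CPM in early ND mice. The groups did not overlap, against 0.222% of all genes lower without overlap, and the value of Hpcal1 was −0.47 (95% interval −0.72 to −0.23). Rab3d, a GTPase of secretory granules, had −0.70 (−1.08 to −0.31), Nek6, a mitotic kinase, had −0.60 (−0.96 to −0.24), and Pdcd6, a calcium-binding protein of membrane trafficking, had −0.43 (−0.69 to −0.17). Rflnb, which binds filamin, had −0.37, 2310011J03Rik had −0.38 and Adprh, which removes ADP-ribose from arginine, had −0.51, with 0.472 of the exon bases of Adprh opposite another gene.

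**Figure D5:**
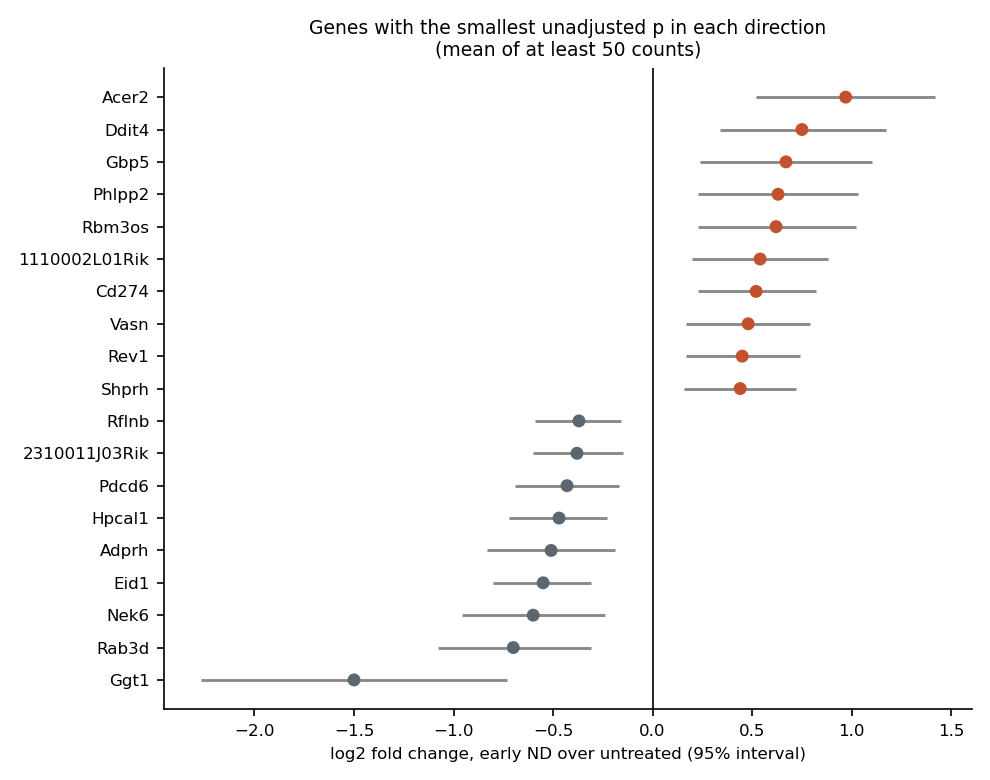
Log2 fold change of early ND over untreated (x axis, points) with its 95% interval (lines) for 19 of the 20 genes with the smallest unadjusted p, 10 in each direction, among genes averaging 50 counts or more. The values run from −1.50 for Ggt1 to 0.97 for Acer2, and each of the 19 genes has an adjusted p of 0.938 or more.

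Genes of tissues other than blood were measured as well, because the samples were cheek bleeds. Of 17 keratinocyte genes 4 were high enough for testing, and Krt5 and Krt14, the defining keratins of basal epidermis, were at or below 2.92 and 0.648 CPM in every mouse. Skin gland lipid genes were highest in 2 mice. Scd3, a fatty acid desaturase of sebaceous glands, was at 18.5, 24.8, 103, 92.8 and 501 CPM in untreated mice and at 33.2, 23.6, 261, 24.0 and 16.8 CPM in early ND mice. Untreated mouse 5 and early ND mouse 3 stood above the rest of their groups, with list scores of 7.79 and 6.93. Untreated mice 3 and 4 came next, with 5.08 and 5.03. All 9 tested members of this list were below 0, with a median of −0.77. That median was 0.77 without untreated mouse 5, −2.29 without early ND mouse 3 and −0.68 without both. With both mice left out, 264 genes were higher and 550 lower at an unadjusted p under 0.05, and 0 passed the adjusted threshold in either direction. Of 10 muscle and salivary gland genes only Tnnt3, a fast muscle troponin, was high enough for testing, at 0.42 (95% interval −0.14 to 0.97). The 6 tested fibroblast and endothelium genes were all above 0, with a median of 0.53, which was 0.24 without early ND mouse 3, and Col1a1, a collagen chain, had 0.25 (−0.80 to 1.29). Kdr, an endothelial growth factor receptor, was low but did not overlap between groups, at 0.456 to 1.22 CPM in untreated mice and 1.41 to 2.12 CPM in early ND mice, a log2 fold change of 1.00 (95% interval 0.37 to 1.63). Over all genes, 0.337% were higher without overlap.

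Housekeeping transcripts were read last. Of 75 ribosomal protein genes 70 were below 0, with a median of −0.11 beside −0.00 over all genes, and of −0.03 without untreated mouse 1. All 10 mitochondrially encoded protein genes were above 0, with a median of 0.12, which was −0.13 without early ND mouse 3 and 0.26 without early ND mouse 2, and mt-Co2 at 0.19 (95% interval −0.48 to 0.87). Replication-dependent histone genes had a median of 0.07 over 17 members, and of −0.05 without early ND mouse 5 and 0.24 without early ND mouse 2. H4c14 alone had an unadjusted p under 0.05, with 1.00 (0.03 to 1.96), against 2.11% of all genes in that direction.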

How the data were processed

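Whole blood RNA was sequenced as 150-base read pairs. Per the labels and the study's methods, the authors aligned reads with STAR 2.7.9, sorted them with SAMtools 1.7 and deposited raw counts per gene from HTSeq-count 0.13.5, on GRCm39. The labels also name mm10, and the annotation release and strand setting are not given in the sources used here. The deposited counts were not normalized. Lines that name no gene were left out, among them pairs aligned to several places, 64.8% to 75.2% of pairs, and 45.2% to 48.0% of uniquely aligned pairs fell on genes. Multiply aligned pairs are uncounted, which affects near-identical copies (hemoglobin, Ly6, Ifit, Gbp and histone genes), whose values are uncertain.

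Samples were grouped by title. Genes were filtered with filterByExpr, scaled by TMM and tested with edgeR 4.0.16 (R 4.3.3) by quasi-likelihood in the 10 libraries (Benjamini-Hochberg, threshold 0.05). Intervals came from the F statistic. DESeq2 1.42.0 gave variance-stabilized counts for principal components. DESeq2 and limma 3.58.1 tests were alternatives. For single values per mouse, exact permutation tests (two-sided, scipy 1.17.1) were used. Scores are means of log2 CPM with a prior count of 2. Scripts were tested on simulated data. Coordinates are from a GRCm39 annotation, which matched 54749 of 55416 genes.

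Named genes were the 10 with the smallest unadjusted p in each direction with a mean of at least 50 counts, the defining markers of each list, the list members with the smallest p in each direction, the 10 most abundant genes and genes past the adjusted threshold under any alternative. Further list members were named after their values were seen. Members and lists were chosen with earlier results of these data known. No pairing of mice by replicate number is given in the titles or the study's methods. Deviations of same-numbered mice correlated at −0.301 to 0.0800, and such correlations cannot settle whether the mice were paired. Some genes of these lists are not reported here.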

Additional observations from a re-analysis of the deposited data

Results flagged for a closer look

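Values were checked for a mouse far from the other 4 of its group, by Dixon's ratio of the gap to the range against 0.71. In 322 groups of 5 mice 26 values stood apart, while chance alone flags about 1 in 20 groups. Early ND mouse 3 held 9 of these and untreated mouse 5 held 5, the mice with the most skin gland lipid RNA.

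In early ND mouse 3 the skin gland lipid list score was 6.93, with Scd3 at 261 CPM, Elovl3 at 148 CPM, Far2 at 34.2 CPM and Epcam, an epithelial adhesion protein, at 15.6 CPM. In untreated mouse 5 Scd3 was at 501 CPM, Elovl3 at 247 CPM, Far2 at 88.1 CPM and Epcam at 23.4 CPM. The same early ND mouse 3 had the highest glucocorticoid-responsive list score, 4.91, with Fkbp5 at 70.8 CPM. It also had the most Ggt1 of its group, at 9.85 CPM, and the least Cd8a, at 18.9 CPM. Untreated mouse 5 had the least Ppbp, a platelet chemokine, at 491 CPM.

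Untreated mouse 4 had the most Gbp2, at 83.5 CPM, Irf1, at 103 CPM, and Ly6c2, at 112 CPM, of its group. Early ND mouse 5 had the most Ccr2, at 295 CPM, and Csf1r, at 96.4 CPM. Early ND mouse 1 had the most 1110002L01Rik, at 12.5 CPM, and early ND mouse 2 had the lowest hematopoietic progenitor list score, 1.43. Untreated mouse 1 had the most Thbs1, at 152 CPM, and untreated mouse 3 the most Ccr3, the eotaxin receptor, at 9.80 CPM. Untreated mouse 2 had the most gene counts, 10796099, and the least mt-Co2, at 6.50 CPM. In early ND mouse 4, 48.0% of uniquely aligned pairs fell on genes, the highest share of its group.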

How the results depend on the processing

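The counts of 0 genes higher and 0 lower held under DESeq2, limma, other filters, size factors and covariates and when each mouse was left out, but not with library totals in place of TMM. There the unadjusted edgeR p rose to 0.158 for Cd274, 0.111 for Gbp5, 0.235 for Eid1 and 0.279 for Hpcal1. It fell to 0.00103 for S100a8. With these totals 1 gene passed as higher (Kif5a, 3.29) and 2 as lower (Lipg, −2.38, and Prok2, −2.72), and the median over all genes was 0.04. Kif5a was at 15.1 and 22.6 CPM in early ND mice 1 and 4 and at 1.30 CPM or less in the other 8 mice. The cause was not tested.

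With the replicate block, 0 genes passed in either direction, and 223 were higher and 177 lower at an unadjusted p under 0.05. The block left 5 neutrophil members under that p. In the deviations, 0 early ND mice correlated best with their own number, which does not settle whether the numbers pair the mice. Unadjusted counts were 435 and 650 with limma, 31 and 117 with library totals, 658 and 576 without a filter, and ran from 152 to 367 higher and 179 to 815 lower when each mouse was left out, with 815 and 367 without early ND mouse 3, 509 lower without untreated mouse 3, and 152 and 179 without early ND mouse 1.

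Leaving out each mouse gave medians of −0.10 to 0.09 for checkpoint genes, −0.57 (without early ND mouse 3) to 0.43 (without untreated mouse 5) for keratinocyte genes and −2.29 to 0.77 for skin gland lipid genes. In 1 fit of all 15 libraries the checkpoint median was −0.05 and the muscle and salivary gland value 0.87. Without a filter the latter was 0.90 and the median of the chemokine and chemoattractant receptor list 0.06. Of 614 such medians 606 moved by less than 1 SD of the score. For late ND, DESeq2 called 272 higher and 538 lower, and the block 230 higher. Of 2732 values of 126 named genes, 2696 were labelled the same as in the main fit, 33 moved, 3 stronger and 0 reversed. These labels do not mean that every sign was kept. All 4 hemoglobin genes were below 0 in the main fit, for example, and their median was 0.14 without untreated mouse 1.

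Skin gland lipid mice were singled out after the data were seen. Intervals were widest for genes under 30 counts, of which 54.0% excluded a doubling and a halving.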
